A study of Homo sapiens with 16 samples.

Results

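The combined exposure of HMC3 cells to estradiol (E2) and (2R,6R)-HNK was compared with vehicle in 4 RNA-seq libraries out of 16 in the series. HMC3 is an established human microglial cell line, and HNK is hydroxynorketamine, a group of compounds formed when the body metabolises ketamine. The members were the 2 libraries labelled E2+(2R,6R)-HNK and the 2 labelled vehicle, taken by those labels alone. The combination held 0.1 nM E2 and 400 nM (2R,6R)-HNK, and all treatments lasted 24 h. Further libraries entered where a comparison needed them, namely 2 each of E2 alone at 0.1 nM, (2R,6R)-HNK alone at 400 nM, E2+(2S,6S)-HNK with 0.1 nM E2 and 400 nM of the other stereoisomer, and (2S,6S)-HNK alone at 400 nM. The remaining 4 libraries, 2 of ketamine at 400 nM and 2 of ketamine at that dose with 0.1 nM E2, entered the fit of the spread, the principal components and the plot of zinc-related genes. All groups shared the same cell line, and the sources used here do not state whether replicate libraries were separate cultures, so the p-values measure the spread between these libraries, which may be technical.

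E2 is a steroid hormone that acts through the nuclear receptors ESR1 and ESR2 and through the membrane receptor GPER1. Ketamine blocks the NMDA type of glutamate receptor, whereas (2R,6R)-HNK and (2S,6S)-HNK are metabolites that differ from each other in the configuration at both stereocentres. Microglia are the resident macrophages of the brain, and they produce cytokines, complement proteins and interferon-responsive proteins.

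The 4 libraries held 60115434 to 75331706 counts, and 16004 of 25370 genes passed the filter on low counts and were tested. Most of the list of microglial and macrophage markers was at or near 0 in these cells. Of its 21 markers, 15 had at most 7 counts in each of the 4 libraries, including AIF1, CX3CR1, P2RY12, TMEM119, ITGAM, SPI1, PTPRC and TYROBP. The summed level of the whole list was 117.3 to 121.3 CPM (counts scaled to a library total of 1000000) in vehicle and 100.3 to 104.4 CPM with the combination. Markers of fibroblasts and pericytes summed to 23143 to 23695 CPM in vehicle and to 26762 to 27014 CPM with the combination, and 9 of 17 tested members rose (52.9%) and 4 fell (23.5%), beside 33.4% and 36.3% of all genes. With a correction for GC content and exon length, described with the main comparison, that list had 5 higher and 8 lower, and without replicate 2 of the combination 2 rather than 4 fell. Astrocyte and oligodendrocyte markers summed to 172.1 to 174.5 CPM in vehicle and 129.1 to 129.3 CPM with the combination, and neuronal markers to 108.1 to 109.1 CPM and 86.6 to 90.2 CPM. Of the former 2 of 8 tested members rose (25%) and 2 fell (25%), with ALDH1L1, a folate enzyme of astrocytes whose exons overlap ALDH1L1-AS1, rising by 1.50 ± 0.12 on the log2 scale although the sum fell, and of the latter 0 of 6 tested members rose (0%) and 1 fell (16.7%), again beside 33.4% and 36.3% of all genes. The part of other cell types in the results was not tested. ESR1 had 0 counts in each of the 4 libraries, which allows at most 3 counts in a library. Low counts in these libraries were mostly even, so both reads of a pair may have been counted, and the low counts printed here may then stand for fewer fragments. ESR2 had 27 and 32 counts in vehicle and 17 and 28 with the combination, and GPER1 had 51 and 69 counts in vehicle and 58 in both treated libraries.

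In a principal component analysis of log2 CPM over 16004 genes, replicate libraries lay close together, and the groups did not fall in the order of the treatments. The first component (30.3% of the variance) placed vehicle at 56.5 and 57.8, apart from all other libraries, which lay between -27.8 and 9.98. The second (22.6%) placed the combination at 17.6 and 17.5, beside (2S,6S)-HNK alone at 16.7 and 14.5 and below E2+(2S,6S)-HNK at 32.9 and 37.3, whereas E2 alone lay at -16.6 and -18.8 and (2R,6R)-HNK alone at -22.4 and -24. The combination thus lay nearer on both components to (2S,6S)-HNK, a group that received neither E2 nor (2R,6R)-HNK, than to either of its own components. The labels name no batch, so a batch shared by some groups and the treatments cannot be told apart. This bears on the comparison with vehicle as well as on those with E2 and (2R,6R)-HNK alone. It also bears on the later comparisons with E2+(2S,6S)-HNK and with the sum of the single effects. The gene weights were correlated across 15332 genes with exon GC content, at a Spearman's rho of -0.71 for the first component and -0.45 for the second.

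Of 16004 genes tested, 5342 rose and 5809 fell at an adjusted p under 0.05, which is 33.4% and 36.3% of all genes and 69.7% together (edgeR quasi-likelihood test, p adjusted by Benjamini-Hochberg). When a log2 change of 1 or more was also required (at least 2-fold), 977 genes rose and 866 fell, or 6.1% and 5.41% of genes and 11.5% together. Among the latter, 809 had a mean of at least 5 CPM, with 278 higher and 531 lower. All 809 had no overlap between the groups, so a rule of no overlap removed none of them. The share without overlap over all genes tested was not counted. A mean under 1 CPM was found in 622 of the genes changed at least 2-fold (33.7%), against 20.4% of all genes tested. The log2 fold change was correlated across genes with the GC content of the exons (Spearman's rho = 0.663 over 15332 genes, which share the same 4 libraries and are not independent). Median exon GC content was 58.5% in the genes that rose at least 2-fold, 40.2% in those that fell and 48.7% in all genes tested. After a correction for GC content and exon length, rho was 0.0457, and the counts at least 2-fold were 587 higher and 335 lower. The share of higher calls was thereby 63.7% rather than 53%, and 697 genes were called in the same direction both ways. Here a GC-dependent change of the cells and a bias of the libraries cannot be told apart. With the correction 4146 genes (25.9%) were higher and 5375 (33.6%) lower at an adjusted p under 0.05, and 3.67% and 2.09% by at least 2-fold. Another scaling also moved the balance, since with upper-quartile normalization 6021 genes were higher and 5203 lower, and 1188 and 611 by at least 2-fold, so that 66% of the latter calls were higher. Gene lists are set beside these shares and those as counted. In the comparison with vehicle, corrected counts are given for the lists, apart from the microglial, the astrocyte and oligodendrocyte, and the neuronal markers. Corrected values are also given for genes whose call or 2-fold change the correction removed.

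**Figure D1:**
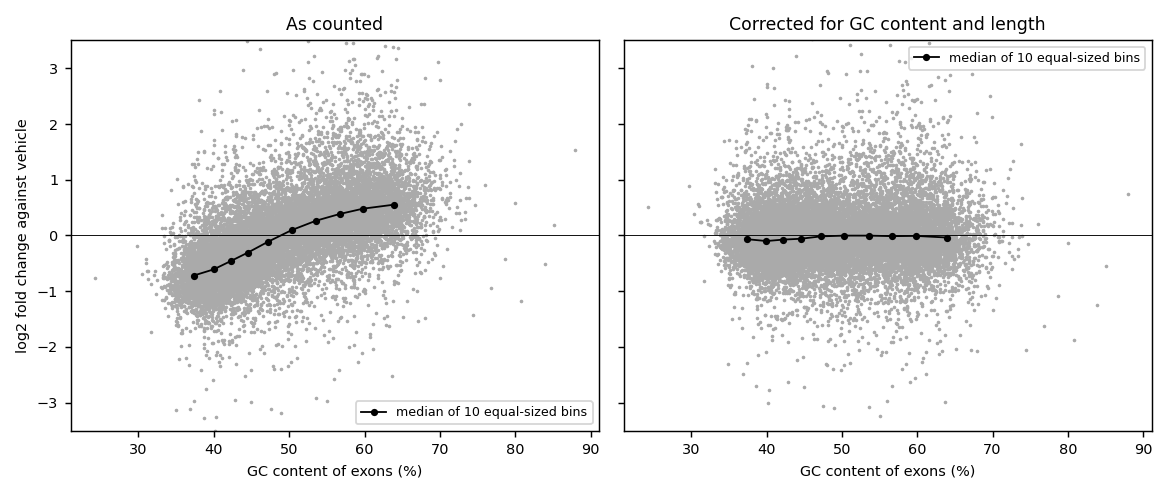
Each point is 1 of 15332 genes with a known exon composition, plotted by exon GC content (%) and log2 fold change of E2+(2R,6R)-HNK against vehicle, as counted on the left and after correction for GC content and exon length on the right; black points are medians of 10 equal-sized bins, and 21 and 17 genes lie beyond the axis. As counted, the bin medians climb from -0.72 at a GC content of 37.3% to 0.55 at 63.9%, and after correction they lie between -0.10 and 0.00.

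The 15 largest rises among the 278 eligible genes had log2 fold changes of 1.91 to 3.06. KCNAB2, a beta subunit of voltage-gated potassium channels (chr1:6050987-6161253, plus strand of GRCh37), had 1.49 and 1.83 CPM in vehicle and 13.7 and 13.9 CPM with the combination. This was the largest rise, and its log2 fold change was 3.06 ± 0.13 (SE from the fit over 16 libraries, 2 per group, adjusted p = 5.46e-26). Its exons overlap those of NPHP4 on the opposite strand over 212 bases, and strandedness of the counting was not given in the sources used here. CDK18, a PCTAIRE kinase related to the cyclin-dependent kinases (chr1:205473724-205501921, plus strand), had 11.1 and 10.5 CPM in vehicle and 63.1 and 62.9 CPM with the combination. The treated libraries were almost identical to each other and well above vehicle, with a log2 fold change of 2.54 ± 0.06, adjusted p = 1.09e-35.

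TNXB encodes the matrix glycoprotein tenascin-X and had 2.58 and 1.95 CPM in vehicle and 12.4 and 12.7 CPM with the combination (log2 fold change 2.47 ± 0.12), with 298 bases of exon shared with CYP21A2 on the other strand. EMID1, a secreted protein with an EMI domain, had 2.58 and 1.83 CPM in vehicle and 11.4 and 11.6 CPM with the combination. HTRA1, a secreted serine protease that cleaves matrix proteins, had 2.22 and 2.55 CPM in vehicle and 12.7 and 11.6 CPM with the combination. All of these were at low levels in vehicle, and no treated library reached down to them. IGFBP5, which binds insulin-like growth factors, had 8.88 and 7.60 CPM in vehicle and 35.1 and 35.4 CPM with the combination (log2 fold change 2.10 ± 0.08, adjusted p = 1.24e-27; chr2:217536828-217560272, minus strand). ACAN, the cartilage proteoglycan aggrecan, rose by 1.93 ± 0.12 on the log2 scale, and FBLN7, a fibulin, by 1.92 ± 0.13.

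ABCA3, a lipid transporter known from lung surfactant, had 5.95 and 4.80 CPM in vehicle and 24.6 and 23.3 CPM with the combination. KIRREL3, an adhesion molecule of the immunoglobulin superfamily, had 29.0 and 28.9 CPM in vehicle and 109 and 114 CPM with the combination, and its exons overlap those of KIRREL3-AS3. SEMA5A, a transmembrane semaphorin, had 12.2 and 12 CPM in vehicle and 45.7 and 46.8 CPM with the combination. The remaining rises were those of FER1L4 (a transcribed pseudogene, 2.07 log2), the corepressor TLE2 (1.99), the peptidylarginine deiminase PADI2 (1.97) and LPPR3 (1.91), a membrane protein related to lipid phosphatases, whose exons contain MIR3187 on the opposite strand. With the GC and length correction, all 15 stayed at least 2-fold higher, between 1.19 and 2.54.

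The 15 largest falls among the 531 eligible genes (mean of at least 5 CPM, groups not overlapping) had log2 fold changes between -2.34 and -1.54. CPA4, a secreted carboxypeptidase (chr7:129932974-129964020, plus strand), had 282 and 290.3 CPM in vehicle and 54.9 and 58.5 CPM with the combination. This was the largest of these falls, at -2.34 ± 0.03, adjusted p = 5.08e-46, and it was -2.42 with the GC and length correction. ANXA1, a phospholipid-binding protein that dampens inflammation (chr9:75766781-75785309, plus strand), had 160.5 and 162 CPM in vehicle and 41.6 and 41.1 CPM with the combination. Its log2 fold change was -1.96 ± 0.04, and -1.29 with the correction.

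CHORDC1, a cochaperone of HSP90, had 60.2 and 60.7 CPM in vehicle and 18.0 and 17.9 CPM with the combination, and HSPH1, a large chaperone of the HSP110 kind, had 88.0 and 89.1 CPM in vehicle and 28.1 and 29.4 CPM with the combination. RPP40, a subunit of ribonuclease P, had 24.9 and 25.4 CPM in vehicle and 7.63 and 7.57 CPM with the combination. The treated libraries lay far below vehicle in each of these genes, with log2 fold changes of -1.75, -1.62 and -1.73. KLF2, a zinc finger transcription factor that restrains inflammatory genes, had 14.1 and 11.6 CPM in vehicle and 4.44 and 4.11 CPM with the combination (log2 fold change -1.59 ± 0.11, and -2.09 with the correction). SEMA3C, a secreted semaphorin, had 42.0 and 43.2 CPM in vehicle and 13.6 and 12.6 CPM with the combination. The other falls were those of ZNF326 (-1.76), FAM173B (-1.71), STXBP4 (-1.67), FAM13B (-1.66, overlapped by PKD2L2), GDAP1 (-1.62, overlapped by JPH1), the mitochondrial ribosomal protein MRPL1 (-1.56), the dehydrogenase DHRS2 (-1.56) and ZBED2 (-1.54). With the correction, 14 of the 15 stayed at least 2-fold lower, and MRPL1 was at -0.94.

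**Figure D2:**
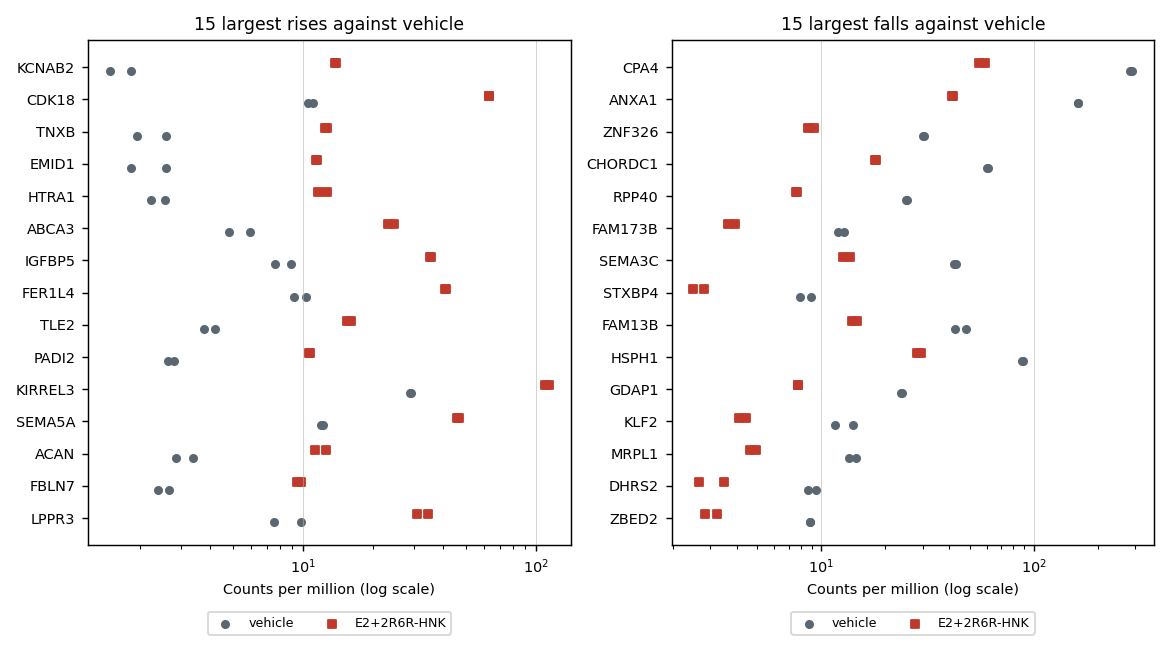
CPM values on a log scale are shown for the 15 genes with the largest rises (left) and the 15 with the largest falls (right), with 2 vehicle libraries as circles and 2 E2+(2R,6R)-HNK libraries as squares. All of these genes had a mean of at least 5 CPM. In every gene the groups do not overlap, by the rule that chose them; KCNAB2 heads the rises at 13.7 and 13.9 CPM, and CPA4 the falls at 54.9 and 58.5 CPM.

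The 6 largest rises and falls in CPM were those of abundant genes. LDHA, which converts pyruvate to lactate, had 4422 and 4524 CPM in vehicle and 2501 and 2483 CPM with the combination (log2 fold change -0.84 ± 0.02). EEF1A1, a translation elongation factor, had 7718 and 7817 CPM in vehicle and 6035 and 6037 CPM with the combination (-0.36 ± 0.02). AHNAK, a giant scaffold protein, had 3749 and 3849.7 CPM in vehicle and 2198 and 2239 CPM with the combination (-0.78 ± 0.02). These falls stayed falls with the GC and length correction, at -0.55, -0.18 and -0.88. ANXA2 fell from 2973 and 3007 CPM to 1809 and 1809 CPM, whereas the fibronectin gene FN1 rose from 15103 and 15666 CPM to 17507 and 17589 CPM (0.19 ± 0.02, and 0.41 with the correction). EEF2, the elongation factor of translocation, rose by 0.66 ± 0.02 and by 0.16 with the correction, and FASN, the fatty acid synthase, by 0.93 ± 0.02 and 0.28. ACTG1 rose by 0.56 ± 0.01 and by 0.091 with the correction. The direction of FLNA and ACTB depended on the correction, since FLNA was at 0.48 as counted and -0.11 corrected, and ACTB at 0.42 and -0.065.

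Chaperones were the list with the lowest median. These proteins fold other proteins and limit their aggregation. In the list 7 of 50 tested members rose (14%) and 37 fell (74.0%), against 33.4% and 36.3% of all genes, and 14 (28%) fell at least 2-fold, against 5.41% of all genes. With the correction 5 did (10%), against 2.09% of all genes, and with upper-quartile normalization 8. Their median log2 fold change was -0.61, beside -0.021 for all genes tested. With the GC and length correction the list had 3 higher and 43 lower, against 25.9% and 33.6% of all genes, a median of -0.47, and over all settings tried 34 to 43 members fell. HSP90AA1, the inducible cytosolic HSP90, had 1717 and 1726 CPM in vehicle and 606 and 623 CPM with the combination (log2 fold change -1.49 ± 0.02, adjusted p = 6.70e-45), and overlaps WDR20 over 197 bases. HSPA8, the constitutive HSC70, had 2293 and 2376 CPM in vehicle and 1136 and 1165 CPM with the combination (-1.02 ± 0.02). DNAJA1, an HSP40 cochaperone, had 224 and 230.0 CPM in vehicle and 83.2 and 81.3 CPM with the combination (-1.46 ± 0.03, and -0.98 with the correction). The groups did not overlap in any of these, as in every gene changed at least 2-fold with a mean of at least 5 CPM. HSPA5, the chaperone of the endoplasmic reticulum, fell by 0.83 ± 0.02 on the log2 scale, and the constitutive HSP90AB1 fell by 0.49 ± 0.02 on the log2 scale. HSF1, the transcription factor of the heat shock response, was at 0.55 as counted and -0.10 after correction.

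The promoters of 2 of these chaperones are shown because both hold the paired half-sites bound by heat shock factors. The stretches cover the 250 bases before the transcription start (RefSeq, GRCh38.p14), for HSPA8 at chr11:123062137-123062386, minus strand and for CHORDC1 at chr11:90223050-90223299, minus strand. Capitals mark TTCNNGAA and GAANNTTC, which are each their own reverse complement and overlap each other, with 4 matches in HSPA8 and 6 in CHORDC1.
HSPA8: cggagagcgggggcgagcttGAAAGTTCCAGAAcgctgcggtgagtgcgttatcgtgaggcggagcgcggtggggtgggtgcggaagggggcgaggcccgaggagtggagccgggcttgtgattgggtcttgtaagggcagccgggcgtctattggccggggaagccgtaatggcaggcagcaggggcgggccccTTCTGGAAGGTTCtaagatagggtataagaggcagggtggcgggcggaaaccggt
CHORDC1: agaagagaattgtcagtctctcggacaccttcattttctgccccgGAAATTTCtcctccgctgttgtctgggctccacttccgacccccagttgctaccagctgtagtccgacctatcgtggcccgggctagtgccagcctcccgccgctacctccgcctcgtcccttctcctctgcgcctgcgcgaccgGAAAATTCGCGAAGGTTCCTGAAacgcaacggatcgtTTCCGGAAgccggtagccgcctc
Either form was found in 10.4% of the 16323 promoter windows of 300 bases listed for the genes tested. Among genes changed at least 2-fold, it was in 10.5% of 863 windows of those that fell and 7.16% of 894 windows of those that rose. Only 636 of the 977 genes that rose and 605 of the 866 that fell had a promoter in the reference used. For all genes tested it was 11212 of 16004. The difference between these shares was not tested. A match is a description of letters, and binding was not measured.

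Among interferon-stimulated genes 20 of 44 tested members rose (45.5%) and 14 fell (31.8%), with a median of 0.29, beside 33.4% and 36.3% of all genes. At least 2-fold, 4 rose (9.09%) and 2 fell (4.55%), near the 6.1% and 5.41% of all genes. Without replicate 1 of the combination 4 fell at least 2-fold, with upper-quartile normalization 1 did and with the correction 0 did. With the correction the list had 23 higher and 10 lower at an adjusted p under 0.05. IFITM1, a membrane protein that restricts virus entry, had 1.37 and 1.06 CPM in vehicle and 2.75 and 3.16 CPM with the combination (log2 fold change 1.28 ± 0.29, adjusted p = 1.38e-04, and 0.89 with the correction). MX1, an antiviral GTPase, had 1.41 and 1.85 CPM in vehicle and 3.09 and 2.72 CPM with the combination (0.84 ± 0.18), and overlaps TMPRSS2. ISG15, a ubiquitin-like modifier, had 27.9 and 28.2 CPM in vehicle and 46.5 and 43.8 CPM with the combination (0.69 ± 0.05, and 0.20 with the correction). IFIT5, an RNA-binding interferon-induced protein, moved the other way and had 16.4 and 16.4 CPM in vehicle and 7.82 and 7.96 CPM with the combination (-1.05 ± 0.08, and -0.48 with the correction). HERC5, the ligase that attaches ISG15, also fell, from 3.3 and 2.87 CPM to 1.44 and 1.41 CPM (-1.12 ± 0.17, and -0.78 with the correction).

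Among the interferon signalling genes 16 of 35 tested members rose (45.7%) and 15 fell (42.9%), or 13 higher and 12 lower with the correction. All genes stood at 33.4% and 36.3%, or 25.9% and 33.6% corrected, so the falls were near that share. The kinases split, in that JAK1 fell from 127 and 133 CPM to 87.1 and 85.7 CPM (-0.59 ± 0.03), whereas JAK3 rose from 2.75 and 1.83 CPM to 6.63 and 6.35 CPM (1.50 ± 0.14). Of the factors that form the ISGF3 complex, STAT2 had 64.8 and 68.2 CPM in vehicle and 126 and 123 CPM with the combination (log2 fold change 0.91 ± 0.04, adjusted p = 4.49e-27). IRF9 had 17.1 and 15.4 CPM in vehicle and 26.7 and 24.3 CPM with the combination (0.65 ± 0.06). STAT3, which carries cytokine signals, rose by 0.55 ± 0.03 and STAT5A by 1.24 ± 0.10 (0.79 with the correction). IRF7, a driver of interferon production, was at 0.58 as counted and -0.057 corrected, where it no longer passed (adjusted p = 0.284). PTPN11, the phosphatase SHP2, had 318 and 323 CPM in vehicle and 153 and 154 CPM with the combination (-1.06 ± 0.03, and -0.79 with the correction).

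Antigen presentation and complement had the highest list medians as counted. That order depended on the setting, since claudins were at 0.786 with at least 10 counts in every library, which left 9 members tested. Antigen presentation and complement reached at most 0.763 and 0.755 over all settings. MHC class I molecules show peptides to T cells, and in that list 11 of 17 tested members rose (64.7%) and 3 fell (17.6%), beside 33.4% and 36.3% of all genes, with a median of 0.68 and 14 higher and 2 lower after correction. HLA-B had 104 and 103 CPM in vehicle and 227 and 228 CPM with the combination (1.13 ± 0.03, and 0.81 with the correction), HLA-C had 51.2 and 53.2 CPM in vehicle and 107 and 104 CPM with the combination (1.02 ± 0.04, and 0.53 with the correction), and reads of these near-identical genes could have been split between them in the authors' counting. HLA-E rose by 0.63 ± 0.03. B2M, the light chain of the complex, was at -0.11 as counted and 0.36 corrected. In the complement list 9 of 19 tested members rose (47.4%) and 3 fell (15.8%), with a median of 0.67, or 0.68 with 8 higher and 2 lower after correction. SERPING1, the inhibitor of C1, had 2.40 and 2.25 CPM in vehicle and 7.23 and 7.54 CPM with the combination (log2 fold change 1.67 ± 0.13, adjusted p = 8.24e-17). C1R, a protease of the C1 complex, had 3.86 and 3.99 CPM in vehicle and 12.5 and 11.7 CPM with the combination (1.62 ± 0.10). C2, the second component of the classical pathway, had 0.703 and 0.739 CPM in vehicle and 2.36 and 2.19 CPM with the combination (1.66 ± 0.25). The vehicle libraries were below the treated ones in all of these, and their levels were low.

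Inflammatory cytokines were mostly weakly expressed. In that list 7 of 24 tested members rose (29.2%) and 4 fell (16.7%), both below the 33.4% and 36.3% of all genes. With the correction 6 higher and 4 lower were called, and 2 rather than 4 fell without replicate 2 of the combination, with DESeq2 or with at least 10 counts in every library. That last filter left 15 members tested. The chemokine CXCL16 had 7.68 and 7.47 CPM in vehicle and 17.3 and 15.7 CPM with the combination (1.12 ± 0.08, and 0.73 with the correction), and the adhesion molecule ICAM1 had 1.03 and 0.940 CPM in vehicle and 2.2 and 2.58 CPM with the combination (1.28 ± 0.21, and 0.93 with the correction). IL6 had 0.964 and 1.06 CPM in vehicle and 0.268 and 0.363 CPM with the combination (-1.68 ± 0.33), and IL11, of the same cytokine family, had 73.4 and 69.8 CPM in vehicle and 43.0 and 45.5 CPM with the combination (-0.69 ± 0.04).

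Potassium channels, neuropeptides and claudins were examined as membrane and signalling families. Of potassium channel subunits 26 of 51 tested members rose (51%) and 5 fell (9.80%), beside 33.4% and 36.3% of all genes. By at least 2-fold 17 rose (33.3%), against 6.1% of all genes, and the median was 0.59. With the correction the median was 0.26, with 22 higher and 7 lower. Then 12 (23.5%) were at least 2-fold higher, against 3.67% of all genes corrected. The falls were 2 without replicate 2 of the combination, and 3 without replicate 2 of vehicle, with DESeq2 on the groups compared or with at least 10 counts in every library. That last filter left 35 members tested, of which 11 (31.4%) rose at least 2-fold. The share of all genes under that filter was not counted, and the 6.1% belongs to the main fit. Apart from KCNAB2, the 3 largest rises of this list had a mean under 1 CPM, and KCNJ3 had 0 counts in both vehicle libraries and 12 and 6 in the treated ones. Of neuropeptide genes 15 of 37 tested members rose (40.5%) and 8 fell (21.6%), a balance that was 9 higher and 7 lower with the correction. The 8 falls of neuropeptide genes depended on the setting. They were 5 without either replicate of the combination, without replicate 1 of vehicle, with either other filter on low counts or with DESeq2 size factors in edgeR, 4 with DESeq2 on all libraries, edgeR on the groups compared or upper-quartile normalization, and 3 with DESeq2 on the groups compared. The filter of at least 10 counts in every library left 29 neuropeptide genes tested. OPRL1, the nociceptin receptor, had 0.817 and 1.21 CPM in vehicle and 5.11 and 5.07 CPM with the combination (log2 fold change 2.33 ± 0.18, adjusted p = 1.73e-16). ADM2, a peptide of the calcitonin family, had 10.7 and 11.3 CPM in vehicle and 28.6 and 28.7 CPM with the combination (1.38 ± 0.07, and 0.79 with the correction). ECEL1, a membrane endopeptidase, had 0 counts in both vehicle libraries and 12 and 18 with the combination. Of claudins, the proteins of tight junctions, 5 of 16 tested members rose (31.2%) and 3 fell (18.8%), or 5 higher and 0 lower with the correction. CLDN4 had 0.670 and 0.654 CPM in vehicle and 2.64 and 2.35 CPM with the combination (1.91 ± 0.22), and CLDN3 had 2.80 and 2.62 CPM in vehicle and 6.12 and 5.88 CPM with the combination (1.15 ± 0.12, and 0.52 with the correction).

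Among estrogen receptors and classical estrogen targets 11 of 35 tested members rose (31.4%) and 9 fell (25.7%), beside 33.4% and 36.3% of all genes, with a median of -0.011; after correction there were 5 higher and 13 lower. NRIP1, a corepressor that estrogen receptors induce in other cells, had 87.7 and 85.6 CPM in vehicle and 42.1 and 42.1 CPM with the combination (-1.04 ± 0.04, and -0.51 with the correction). PDZK1 fell from 2.39 and 2.65 CPM to 1.17 and 0.978 CPM (-1.23 ± 0.22, and -0.95 with the correction), and FOS rose from 0.850 and 1.39 CPM to 3.39 and 3.83 CPM (1.69 ± 0.19). Of the genes linked to ketamine through glutamate receptors, synapses and translation 16 of 27 tested members rose (59.3%) and 6 fell (22.2%), and 11 higher and 9 lower with the correction. DLG4, the scaffold PSD-95, had 16.3 and 17.5 CPM in vehicle and 41.7 and 38.2 CPM with the combination (1.24 ± 0.06, and 0.82 with the correction), and its relative DLG1 had 100.4 and 98.8 CPM in vehicle and 48.5 and 49.8 CPM with the combination (-1.02 ± 0.04, and -0.62 with the correction). GRIK4, a kainate receptor subunit, had 1.23 and 1.66 CPM in vehicle and 4.60 and 4.65 CPM with the combination (1.68 ± 0.17). EEF2K, the kinase that inactivates EEF2, rose by 0.68 ± 0.05, and the neurotrophin BDNF, which overlaps BDNF-AS, was at -0.31 ± 0.06.

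**Figure D3:**
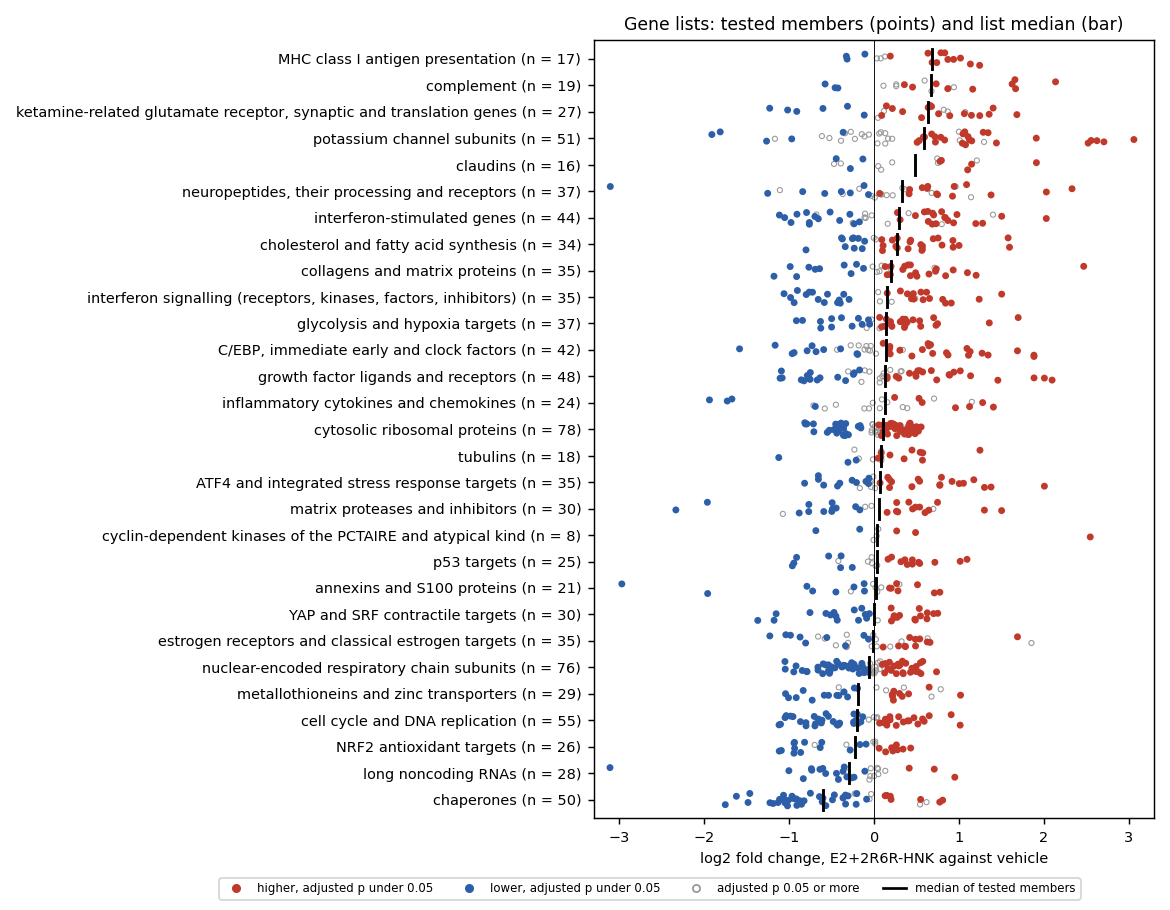
Each point is the log2 fold change of a tested list member, E2+(2R,6R)-HNK against vehicle, in red (higher) or blue (lower) at an adjusted p under 0.05 and open otherwise, with a black bar at the list median and lists ordered by it; ECEL1 and KCNJ3, at 0 counts in vehicle, lie beyond the axis. MHC class I antigen presentation has the highest median (0.68) and chaperones the lowest (-0.61).

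Of collagens and matrix proteins 19 of 35 tested members rose (54.3%) and 10 fell (28.6%), beside 33.4% and 36.3% of all genes, and 17 higher and 11 lower with the correction. COL5A1 had 139 and 135 CPM in vehicle and 296 and 291 CPM with the combination (log2 fold change 1.10 ± 0.03, adjusted p = 1.70e-35, and 0.58 with the correction), and COL13A1, a transmembrane collagen, had 2.78 and 2.65 CPM in vehicle and 6.05 and 6.44 CPM with the combination (1.20 ± 0.13, and 0.94 with the correction). PLOD2, the enzyme that hydroxylates collagen telopeptides, had 547 and 565 CPM in vehicle and 247 and 244 CPM with the combination (-1.18 ± 0.03, and -0.51 with the correction). Of the collagen I chains, COL1A2 rose by 0.36 ± 0.03, and COL1A1 was at 0.15 as counted and -0.35 corrected. Of matrix proteases and inhibitors 13 of 30 tested members rose (43.3%) and 12 fell (40.0%), or 9 higher and 13 lower with the correction, with CPZ, a carboxypeptidase, at 1.50 ± 0.10 (0.96 corrected) and MMP11 at 1.30 ± 0.17 (0.75 corrected). Of YAP and SRF targets 14 of 30 tested members rose (46.7%) and 15 fell (50%), or 11 higher and 16 lower with the correction. THBS1, the matricellular thrombospondin, had 1872 and 1905 CPM in vehicle and 824 and 844 CPM with the combination (-1.18 ± 0.02). DKK1, a secreted Wnt inhibitor, had 102 and 102 CPM in vehicle and 39.1 and 40.0 CPM with the combination (-1.37 ± 0.04), and ANKRD1 fell by 1.15 ± 0.05 on the log2 scale (-0.68 corrected). Of annexins and S100 proteins 7 of 21 tested members rose (33.3%) and 8 fell (38.1%), shares close to those of all genes, or 7 higher and 9 lower with the correction, and ANXA1 had the only fall of at least 2-fold among those with a mean of 1 CPM or more.

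Of growth factor ligands and receptors 21 of 48 tested members rose (43.8%) and 16 fell (33.3%), beside 33.4% and 36.3% of all genes, and 16 higher and 16 lower with the correction. IGFBP7, a secreted binding protein, had 38.4 and 35.9 CPM in vehicle and 143 and 131 CPM with the combination (log2 fold change 1.88 ± 0.04, adjusted p = 3.48e-37), and its exons overlap POLR2B. PDGFB rose from 6.62 and 5.72 CPM to 17.3 and 16.6 CPM (1.46 ± 0.09, and 0.94 with the correction), whereas FGF5 fell from 325 and 325 CPM to 150.2 and 151 CPM (-1.11 ± 0.03, and -0.55 with the correction). GDF15, a stress-induced member of the TGF-beta family, had 1.55 and 1.86 CPM in vehicle and 6.56 and 7.15 CPM with the combination (2.00 ± 0.13). Of C/EBP, immediate early and clock factors 21 of 42 tested members rose (50%) and 11 fell (26.2%), or 15 higher and 16 lower with the correction. CEBPD, an acute phase transcription factor, had 4.74 and 4.60 CPM in vehicle and 17.4 and 17.0 CPM with the combination (1.88 ± 0.08). FOSB, an immediate early factor, had 0.785 and 0.806 CPM in vehicle and 2.92 and 2.95 CPM with the combination (1.88 ± 0.20), and TEF, a factor driven by the clock, had 11.4 and 13 CPM in vehicle and 30.8 and 31.0 CPM with the combination (1.34 ± 0.07, and 0.90 with the correction).

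Of cholesterol and fatty acid synthesis genes 22 of 34 tested members rose (64.7%) and 10 fell (29.4%), beside 33.4% and 36.3% of all genes, and 19 higher and 8 lower with the correction. ACSS2, which makes acetyl-CoA from acetate, had 63.4 and 66.7 CPM in vehicle and 199.8 and 188 CPM with the combination (log2 fold change 1.58 ± 0.04, adjusted p = 8.76e-38). SCD, the fatty acid desaturase, rose by 0.57 ± 0.02. Of ATF4 targets 18 of 35 tested members rose (51.4%) and 11 fell (31.4%), or 17 higher and 16 lower with the correction. ASNS, which makes asparagine, had 55.9 and 53.7 CPM in vehicle and 121 and 126 CPM with the combination (1.17 ± 0.04, and 1.50 with the correction). Of NRF2 antioxidant targets 8 of 26 tested members rose (30.8%) and 13 fell (50%), and 2 higher and 16 lower with the correction. The thioredoxin gene TXN had 188 and 194 CPM in vehicle and 86.5 and 89.3 CPM with the combination (-1.12 ± 0.03, and -0.35 corrected), PRDX1 fell by 0.94 ± 0.03 on the log2 scale and TXNRD1 fell by 0.87 ± 0.03 on the log2 scale. Of p53 targets 12 of 25 tested members rose (48.0%) and 7 fell (28.0%), but 8 higher and 10 lower with the correction. Of glycolysis and hypoxia targets 22 of 37 tested members rose (59.5%) and 12 fell (32.4%), but 14 higher and 15 lower with the correction, with CA9, a carbonic anhydrase, at 1.99 and 2.77 CPM in vehicle and 7.26 and 8.17 CPM with the combination.

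Of the cell cycle and DNA replication genes 19 of 55 tested members rose (34.5%) and 31 fell (56.4%), beside 33.4% and 36.3% of all genes, and 11 higher and 34 lower with the correction. CCND1, the cyclin of the G1 phase, had 369.8 and 374 CPM in vehicle and 188 and 187 CPM with the combination (log2 fold change -0.99 ± 0.03, adjusted p = 2.86e-34). Its partner kinase CDK6 had 262 and 269.9 CPM in vehicle and 128 and 129 CPM with the combination (-1.05 ± 0.03, and -0.57 with the correction), and the proliferation antigen MKI67 had 504 and 522 CPM in vehicle and 291 and 298 CPM with the combination (-0.80 ± 0.02). CDKN1A, the inhibitor p21, moved the other way and had 116 and 115 CPM in vehicle and 238 and 229 CPM with the combination (1.01 ± 0.03, and 0.60 with the correction). KIF11, a motor of the spindle, fell by 1.12 ± 0.04 on the log2 scale (-0.66 corrected). Of the PCTAIRE and atypical kinases 3 of 8 tested members rose (37.5%) and 2 fell (25%), or 4 higher and 1 lower with the correction, CDK18 being the one at least 2-fold higher. Of cytosolic ribosomal proteins 42 of 78 tested members rose (53.8%) and 25 fell (32.1%), or 38 higher and 32 lower with the correction. Of respiratory chain subunits 26 of 76 tested members rose (34.2%) and 38 fell (50%), or 29 higher and 30 lower with the correction, and CYCS, the electron carrier cytochrome c, had 84.9 and 83.6 CPM in vehicle and 41.4 and 39.9 CPM with the combination (-1.05 ± 0.04, and -0.68 with the correction). Of tubulins 10 of 18 tested members rose (55.6%) and 3 fell (16.7%), but 5 higher and 8 lower with the correction. Of long noncoding RNAs 3 of 28 tested members rose (10.7%) and 16 fell (57.1%), including the nuclear RNA MALAT1 at 239 and 200.3 CPM in vehicle and 107 and 112 CPM with the combination (-1.0 ± 0.08, and -0.61 with the correction). After correction, long noncoding RNAs had 9 higher and 11 lower.

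The next comparisons asked what the combination held beyond each of its components. Against E2 alone, 4019 genes (25.1%) were higher and 4063 (25.4%) lower at an adjusted p under 0.05, and 355 (2.22%) and 217 (1.36%), or 3.57% together, at least 2-fold. Against (2R,6R)-HNK alone the numbers were 3866 (24.2%) and 3805 (23.8%), and 310 (1.94%) and 167 (1.04%), or 2.98% together, at least 2-fold. Both comparisons share the combination's libraries. Of the genes with a mean of at least 5 CPM, 99 differed at least 2-fold from E2 and 68 from (2R,6R)-HNK, and the 6 largest differences in each direction are described.

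IGFBP5 had 9.82 and 7.85 CPM with E2 and 6.43 and 7.59 CPM with (2R,6R)-HNK, below the 35.1 and 35.4 CPM of the combination. Its log2 difference was 1.99 (95% interval 1.83 to 2.16, adjusted p = 5.16e-26) from E2 and 2.34 (95% interval 2.17 to 2.51, adjusted p = 2.72e-28) from (2R,6R)-HNK. KCNAB2 had 2.36 and 3.66 CPM with E2 and 3.56 and 3.48 CPM with (2R,6R)-HNK, and the log2 differences were 2.2 and 1.97. Both components alone were thus well below the combination in these genes. TNXB differed by 1.97 and 1.81, and KIRREL3 by 1.75 and 1.57. HTRA1 (1.92) and CDK18 (1.75) were among the largest differences from E2, and DNHD1 (1.65), a dynein heavy chain domain gene, and ABCA3 (1.6) among those from (2R,6R)-HNK.

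Among the genes lower in the combination, ID3, an inhibitor of basic helix-loop-helix factors, had 33.1 and 32.3 CPM with E2, 31.9 and 30.0 CPM with (2R,6R)-HNK and 9.35 and 9.29 CPM with both. Its log2 difference was -1.81 (95% interval -1.94 to -1.68, adjusted p = 3.75e-28) from E2 and -1.73 (95% interval -1.87 to -1.6, adjusted p = 2.98e-27) from (2R,6R)-HNK. CPA4 had 222 and 221 CPM with E2 and 184 and 191 CPM with (2R,6R)-HNK, and the combination lay lower by a log2 difference of -1.97 and -1.72. CYP1B1, a cytochrome that oxidises estradiol and other substrates, differed by -1.81 and -1.61, and CRISPLD2, a secreted protein, by -1.73 and -1.57. KLF2 (-2.04) and IGFN1 (-1.96) completed the list against E2. ID1, the relative of ID3 (-1.50), and the keratin KRT7 (-1.42) completed the one against (2R,6R)-HNK. The CYP1B1 exons overlap those of CYP1B1-AS1.

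A further comparison asked whether the combination equalled the sum of its components on the log2 scale, by subtracting the effect of (2R,6R)-HNK without E2 from its effect with E2. A departure from the sum was found in 9063 genes at an adjusted p under 0.05 (56.6% of genes), with 5036 (31.5%) above the sum and 4027 (25.2%) below it. Of these, 465 genes (2.91%) lay above and 444 (2.77%) below by at least 2-fold, or 5.68% together. That balance turned with another scaling, to 363 above and 510 below with upper-quartile normalization, and to 393 and 489 with DESeq2 size factors in edgeR. This departure was also correlated with exon GC content (Spearman's rho = -0.584 across the same 15332 genes, and -0.026 after correction), and with the correction 233 genes lay above and 283 below, of which 387 in all were called in the same direction as before.

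Among the 344 genes called at least 2-fold with a mean of at least 5 CPM, CRISPLD2 had the largest departure below the sum (chr16:84853591-84954374, plus strand). It had 25.5 and 26.0 CPM in vehicle, 47.5 and 47.4 CPM with E2, 42.1 and 42.8 CPM with (2R,6R)-HNK and 14 and 14.6 CPM with both. Each component alone was above vehicle and the combination was below it, with a departure of -2.45 (95% interval -2.61 to -2.30, adjusted p = 1.10e-30). CYP1B1 had 6.93 and 5.82 CPM in vehicle, 11.2 and 11.4 CPM with E2, 9.59 and 10.1 CPM with (2R,6R)-HNK and 3.31 and 3.11 CPM with both, and the departure was -2.44 (95% interval -2.73 to -2.14, adjusted p = 9.03e-20). SYNPO, an actin-associated protein, had 26.9 and 26.4 CPM, 41.1 and 41.6 CPM, 47.5 and 47.4 CPM and 19.5 and 20.9 CPM in the same order. IER5L had 18.9 and 17.5 CPM, 33.5 and 34.1 CPM, 36.3 and 37 CPM and 20.2 and 16.5 CPM, so that the combination overlapped vehicle. PLEKHG4 and ID3 showed the same order of groups as CRISPLD2, with departures of -1.94 and -2.06.

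Above the sum, IGFBP5 had 8.88 and 7.60 CPM in vehicle and stayed near that level with each component, whereas the combination had 35.1 and 35.4 CPM; the departure was 2.24 (95% interval 1.98 to 2.50, adjusted p = 1.69e-20). HAS2, a hyaluronan synthase, had 9.37 and 9.95 CPM in vehicle, 4.47 and 4.38 CPM with E2, 3.54 and 3.48 CPM with (2R,6R)-HNK and 6.36 and 6.00 CPM with both. It was lowest with each component alone, with a departure of 1.94 (95% interval 1.62 to 2.26, adjusted p = 3.51e-15). The atypical cadherin FAT3 had 21.2 and 24.5 CPM, 16.6 and 14.9 CPM, 13.7 and 13.4 CPM and 31.3 and 33.0 CPM in that order. NAV3, a microtubule-associated neuron navigator, and MIR100HG, a long noncoding RNA that hosts microRNAs, also lay below vehicle with each component and above it with both, with departures of 1.77 and 1.74. PSG2, a pregnancy-specific glycoprotein of a family of near-identical genes among which reads could be split, had a departure of 1.70. (2S,6S)-HNK alone, given without E2, was nearest to the combination among vehicle, E2, (2R,6R)-HNK and the combination (by log2 mean CPM) in 11 of these 12 genes, with 14 and 14.4 CPM of CRISPLD2, 10.2 and 10.9 CPM of ID3 and 34.2 and 33.3 CPM of IGFBP5. The exception was PSG2, which was nearest to vehicle. With the correction, the 12 departures kept their direction, between -2.69 for CYP1B1 and 2.32 for IGFBP5.

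**Figure D4:**
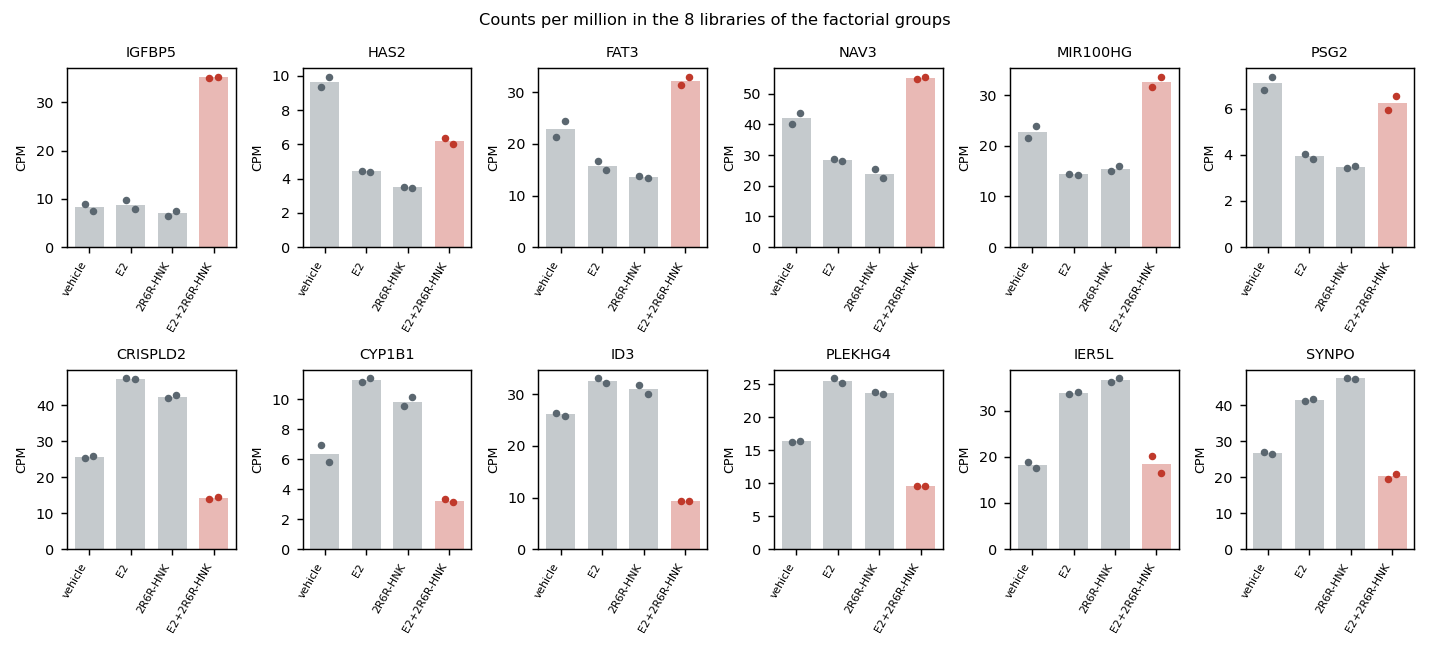
CPM values are shown in 2 libraries each (points, with bars at the mean) of vehicle, E2, (2R,6R)-HNK and E2+(2R,6R)-HNK for the 6 genes farthest above the sum of the single effects (top) and the 6 farthest below it (bottom). These genes were ranked among the 344 called at least 2-fold with a mean of at least 5 CPM. CRISPLD2 lies at 47.5 and 47.4 CPM with E2 and at 14 and 14.6 CPM with the combination, and IGFBP5 reaches 35.1 and 35.4 CPM only with the combination among these 4 groups.

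E2+(2S,6S)-HNK was given at the same doses and for the same time, so the stereoisomers could be compared in the presence of E2, as 1 pair of compounds. The labels name no batch, so the isomer and a batch of either group cannot be told apart. Between them, 4652 genes (29.1%) were higher and 3995 (25%) lower with (2R,6R)-HNK at an adjusted p under 0.05, which is 54% of genes together, but 48 (0.3%) and 58 (0.362%), or 0.662% together, by at least 2-fold. The log2 difference was correlated with exon GC content (rho = 0.673 across 15332 genes), and after correction 4834 genes differed in place of 8647, and 17 were higher and 33 lower by at least 2-fold. Of the genes with a mean of at least 5 CPM, 4 differed at least 2-fold, and all 4 belong to zinc and metal handling. Metallothioneins are small proteins that bind zinc and copper, SLC30A transporters move zinc out of the cytosol and SLC39A transporters move it in.

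The upstream sequences of MT1X and MT2A are shown because these genes differed between the stereoisomers and carry repeats of the core letters of the metal response element. They cover the 250 bases before the transcription start (RefSeq, GRCh38.p14), at chr16:56682220-56682469, plus strand, and chr16:56608334-56608583, plus strand. Capitals mark TGCNCNC on either strand, with 4 matches in MT1X and 7 in MT2A.
MT1X: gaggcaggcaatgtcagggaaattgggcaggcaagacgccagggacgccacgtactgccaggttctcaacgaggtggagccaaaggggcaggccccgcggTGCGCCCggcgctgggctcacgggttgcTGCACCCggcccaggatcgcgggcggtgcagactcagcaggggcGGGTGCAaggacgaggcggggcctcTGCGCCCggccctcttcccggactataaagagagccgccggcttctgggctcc
MT2A: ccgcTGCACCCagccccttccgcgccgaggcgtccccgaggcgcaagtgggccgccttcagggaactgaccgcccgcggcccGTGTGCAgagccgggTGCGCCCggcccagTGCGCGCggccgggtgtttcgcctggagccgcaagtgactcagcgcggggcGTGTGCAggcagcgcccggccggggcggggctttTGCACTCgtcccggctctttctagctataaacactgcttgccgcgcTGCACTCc
This short motif was common, with a match in 63.0% of the 16323 promoter windows of 300 bases of the genes tested.

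MT1E had 49.4 and 50.8 CPM with E2+(2R,6R)-HNK and 19.1 and 17.8 CPM with E2+(2S,6S)-HNK, a log2 difference of 1.44 (95% interval 1.35 to 1.53, adjusted p = 2.73e-29). MT1X had 8.81 and 8.73 CPM and 3.29 and 3.31 CPM, a difference of 1.41 (95% interval 1.19 to 1.63, adjusted p = 1.28e-15). MT2A had 344 and 353 CPM and 165 and 161 CPM, a difference of 1.10 (95% interval 1.04 to 1.16, adjusted p = 2.45e-33). In all of these the isomers did not overlap, and metallothionein reads could be split between related genes. SLC39A10, a zinc importer, moved the other way, with 21.9 and 21.3 CPM and 49.8 and 52.0 CPM and a difference of -1.23 (95% interval -1.34 to -1.13, adjusted p = 3.11e-24), or -0.97 with the correction. SLC30A1, a zinc exporter at the plasma membrane, and MT1F were chosen after their values had been seen, as their means lay under 5 CPM. SLC30A1 had 6.34 and 6.90 CPM and 2.32 and 2.11 CPM, a difference of 1.57 (95% interval 1.34 to 1.81, adjusted p = 4.43e-16), and MT1F differed by 1.07. Of 29 tested members of the metallothionein and zinc transporter list, 11 were higher (37.9%) and 5 lower (17.2%) than with E2+(2S,6S)-HNK, beside 29.1% and 25% of all genes. By at least 2-fold, 6 were higher (20.7%) and 1 lower (3.45%), beside 0.3% and 0.362% of all genes. The list holds MT1E, MT1X, MT2A and SLC39A10, already named as the largest differences, and SLC30A1 and MT1F, chosen after their values were seen. It was drawn up with earlier results of these data known, so these shares are a description and not separate evidence. MT1G, 1 of the 6, had a mean of 0.10 CPM with E2+(2R,6R)-HNK and 0.016 CPM with E2+(2S,6S)-HNK.

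Against vehicle, 9 of 29 tested members rose (31.0%) and 13 fell (44.8%) in the same list, and 5 higher and 11 lower with the correction, beside 33.4% and 36.3% of all genes, or 25.9% and 33.6% corrected. MT1E fell to 49.4 and 50.8 CPM from 77.0 and 73.6 CPM (-0.59 ± 0.04), whereas MT2A had 307 and 293 CPM in vehicle (0.22 ± 0.03, and 0.0069 with an adjusted p of 0.811 after correction). (2R,6R)-HNK alone had 115 and 120.2 CPM of MT1E and 479 and 482 CPM of MT2A, above the combination in both. SLC30A1 had 13.4 and 13.3 CPM in vehicle and 11.6 and 13.3 CPM with (2R,6R)-HNK alone, and fell with the combination (-1.01 ± 0.10, and -0.54 with the correction). SLC30A9 fell by 1.04 ± 0.06 on the log2 scale (-0.44 corrected).

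**Figure D5:**
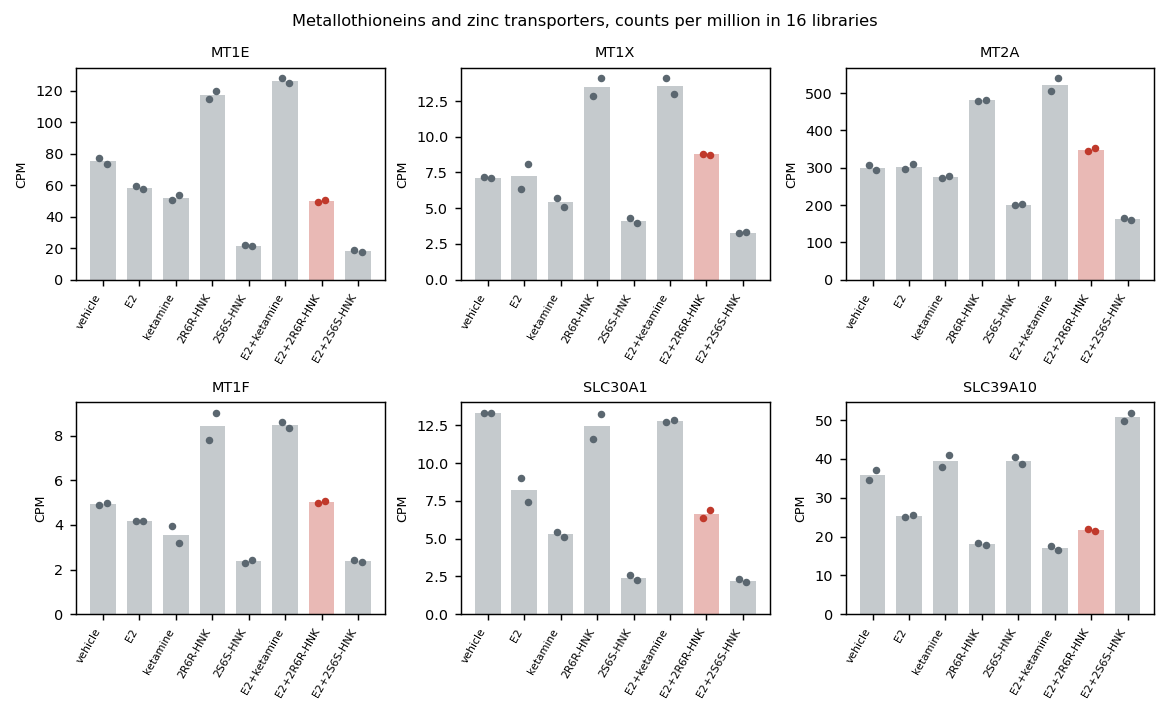
CPM values of 4 metallothioneins and 2 zinc transporters are shown in each of the 16 libraries (points, with bars at the mean of 2), with E2+(2R,6R)-HNK in red. MT1E, MT1X, MT2A, MT1F and SLC30A1 are higher with E2+(2R,6R)-HNK than with E2+(2S,6S)-HNK, and SLC39A10 is lower.

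Genes that led the rises and falls against vehicle differed by less than 2-fold between the stereoisomers. IGFBP5 had 33.1 and 30.2 CPM with E2+(2S,6S)-HNK, a log2 difference of 0.15 (95% interval 0.0092 to 0.29, adjusted p = 0.067), so that a difference larger than 0.29 lay outside the interval. CDK18 had 49.3 and 45.4 CPM (difference 0.41 (95% interval 0.30 to 0.52, adjusted p = 4.08e-09)), KCNAB2 had 9.57 and 9.49 CPM (difference 0.54 (95% interval 0.33 to 0.74, adjusted p = 1.36e-05)), and CPA4 had 65.2 and 65.3 CPM (difference -0.20 (95% interval -0.27 to -0.13, adjusted p = 1.39e-06)). With the correction KCNAB2 differed by 0.25, with an adjusted p of 0.052. ANXA1 had 61.0 and 63.2 CPM with E2+(2S,6S)-HNK, above the combination with (2R,6R)-HNK by a larger margin (difference -0.59 (95% interval -0.66 to -0.51, adjusted p = 8.57e-18)). For comparison by value, (2S,6S)-HNK alone had 34.2 and 33.3 CPM of IGFBP5, 58.6 and 57.7 CPM of CDK18 and 71.4 and 70.2 CPM of CPA4.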

How the data were processed

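Total RNA of HMC3 cells was made into RNA-seq libraries with an amplifying kit and sequenced as paired reads. The authors aligned them to hg19, with TopHat2 2.0.14 and Bowtie2 2.2.6 per the submitters' processing notes, and deposited counts per gene from featureCounts 1.4.6, without normalization, for uniquely mapped, non-discordant pairs. Strandedness is not given in the sources used here. The counts were used as deposited. Of counts from 1 to 9, 65.7% were even, against 49.6% of counts of 500 or more, so both reads of a pair may have been counted, and halved counts were tried as well.

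R 4.3.3 was used with edgeR 4.0.16 (filterByExpr, TMM, a quasi-likelihood fit of 8 group means to 16 libraries, 8 residual degrees of freedom) and DESeq2 1.42.0 as an alternative. P-values were adjusted by Benjamini-Hochberg over the 16004 genes. The common coefficient of variation was 2.81%. With 2 libraries against 2, an exact two-sided permutation test cannot go below p = 0.333, so p-values rest on the fitted model. Library depth was 60115434 to 75331706 counts in the 4 libraries, and 3 counts correspond to 0.0402 to 0.0503 CPM; such limits cover counting error only. GC content, length, positions and overlaps came from GENCODE v44lift37 on GRCh37, whose chromosome sequences are those of hg19. Symbols matched for 21539 genes and older symbols for 1442, which gave 95.8% of those tested a GC content. The correction was a loess fit (span 0.5) per library of log2 CPM on GC content and log2 length.

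The genes named are the 15 largest rises and falls (called, mean of at least 5 CPM, groups not overlapping), the 6 largest rises and falls in CPM, the 4 largest called members per direction of each of 33 lists with a mean of at least 1 CPM plus members a list's name turns on, and the 6 largest differences per direction in each other comparison. Not all of them are described, and some genes are not reported here. Members and lists were chosen with earlier results of these data known, and the heat shock and metal response motifs after the data were seen. The script was tested on simulated data, where edgeR recovered 98% of 200 changed genes among 16004 (log2 fold change 1.5, this comparison) with 1 false call. The principal components (log2 CPM with a prior count of 2, centred and unscaled) were added after the data were seen. Alternatives were another tool or subset of groups, other filters and scalings, the replicate block, the correction, halved counts and each library left out.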

Additional observations from a re-analysis of the deposited data

Results flagged for a closer look

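The interaction of E2 with (2R,6R)-HNK was flagged because the effect of (2R,6R)-HNK differed with and without E2 by its own test (edgeR quasi-likelihood test, p adjusted by Benjamini-Hochberg), in 9063 genes at an adjusted p under 0.05 and in 909 by at least 2-fold. Single genes flagged in the same way lay above the sum of the effects on the log2 scale by 2.24 for IGFBP5, 1.94 for HAS2, 1.78 for FAT3, 1.77 for NAV3, 1.74 for MIR100HG and 1.70 for PSG2. Below the sum were CRISPLD2 at -2.45, CYP1B1 at -2.44, ID3 at -2.06, PLEKHG4 at -1.94, IER5L at -1.89 and SYNPO at -1.86. With the GC and length correction the count of 909 was 516, and these 12 genes kept their direction and an adjusted p under 0.05. In 11 of them, (2S,6S)-HNK alone, given without E2, lay nearer to the combination by log2 mean CPM than to vehicle, E2 or (2R,6R)-HNK. A batch shared by some groups cannot be told apart from such a departure.

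The stereoisomers in the presence of E2 were flagged by the test of their difference, with 106 genes at least 2-fold apart. A batch of either group cannot be told apart from the isomer here. The log2 difference of (2R,6R)-HNK from (2S,6S)-HNK was 1.44 for MT1E, 1.41 for MT1X, 1.10 for MT2A and -1.23 for SLC39A10. With the correction these were 1.27, 1.29, 1.0 and -0.97.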

How the results depend on the processing

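Against vehicle, 1843 genes changed at least 2-fold, and the count was 922 with the GC and length correction and 913 with that correction and the replicate block. The interaction count of 909 was 516 and 512 under the same settings. For the stereoisomers, the 106 genes were 50 and 46 with these corrections, 52 with DESeq2 on all libraries, 29 with DESeq2 on the groups compared and 35 with at least 10 counts in every library, and their 8647 genes at an adjusted p under 0.05 were 4834 and 4817 with the corrections. With at least 10 counts in every library, fewer genes were tested, and the counts against E2 and (2R,6R)-HNK were 371 and 302 in place of 572 and 477. The cause of the other changes was not tested. The counts stayed within 1.5 times of the value reported under the other settings run, including halved counts. Without any 1 library, the comparison with vehicle gave 1780 to 1831 genes, that with E2 510 to 540, that with (2R,6R)-HNK 429 to 450, that of the isomers 94 to 135 and the interaction 874 to 959; a lone library was assumed to vary like the other groups.

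In the comparison with vehicle, single genes changed sign under the correction, without and with the replicate block: FLNA to -0.11 and -0.11, ACTB to -0.065 and -0.065, HSF1 to -0.10 and -0.10, B2M to 0.36 and 0.36, and COL1A1 to -0.35 and -0.35. IRF7, at -0.057 and -0.057 with adjusted p = 0.284 and 0.283 (edgeR), MT1X and MT2A no longer passed against vehicle, nor did B2M with upper-quartile normalization.

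The replicate numbers did not pair the libraries, as deviations of same-numbered libraries correlated at 0.012 between the combination and vehicle over 10701 genes. With the replicate block 1844 genes changed against vehicle, and no count moved over 1.5 times. Libraries of a group differed by 2.99 (combination) and 3.08 (vehicle) times the sampling variance, and genes with few counts carry the largest errors. That variance was the one of independent counts, and it would be larger if both reads of a pair were counted.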
